A study of Mus musculus with 2 samples.

Results

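Chemokine genes are described here in 2 cultures of mouse CD4 T cells. The set was fixed by name as Ccl1, Ccl3, Ccl4, Ccl5, Ccl9, Ccl17, Ccl20, Ccl22, Cxcl10 and Xcl1, and every probe set that the array's annotation assigns to exactly 1 of these symbols was taken. This gave 11 probe sets for 10 genes, among 18193 named genes in all. On such an array each transcript is read by several short probes, together called a probe set, whose brightness is condensed to 1 signal. Ccl9 had 2 probe sets and the other genes 1 each.

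Both cultures started from splenic CD4 T cells of wild type C57BL/6 mice, enriched magnetically to a purity above 98%. They were stimulated through the T cell receptor and CD28 for 2 days in one of the media and harvested after 3 further days. To the CD103+ Th1 medium 3 cytokines had been added, namely 3 ng/ml of IL-4, 10 ng/ml of IFN-γ and 3 ng/ml of TGF-β. The Th1 medium instead contained 1 ng/ml of IL-12 together with 1 µg/ml of an anti-IL-4 antibody. Total RNA of each culture was read on 1 Affymetrix array, so no difference has a replicate check and no test was made. The number of mice is not given in the labels, and 1 array of cultured cells per medium limits what each value stands for.

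Chemokines are small secreted proteins that direct the migration of leukocytes. They bind receptors of the cell surface that signal through inhibitory G proteins, and the pairs overlap, so that Ccl3, Ccl5 and Ccl9 share the receptor Ccr1, while Xcl1 has Xcr1 to itself. Activated T cells make several of them, and Ccl5 in particular is a product of effector and memory T cells. Ccl17, Ccl22, Cxcl10 and Ccl9 are made mainly by dendritic cells, macrophages or tissue cells.

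Most chemokine genes had low signals in both cultures. Xcl1 was at least 3.42-fold higher in CD103+ Th1, Ccl5 was 3.70-fold lower, Ccl1 was at least 1.4986-fold higher, and Ccl4 differed by 1.16-fold. The other 6 genes, Ccl3, Ccl9, Ccl17, Ccl20, Ccl22 and Cxcl10, lay under the median signal of all probe sets on both arrays. That median, 78.5 over both arrays, served as a floor below which signals were not read as levels. Signals under it were set to it, so that a gene under the floor on 1 array gives only a bound, written "at least", and a gene under it on both gives no ratio. Of the 11 probe sets, 4 lay above the floor in CD103+ Th1 and 2 in Th1, and the counts were also 4 and 2 with each array's own median (78.0 and 78.8) in place of the floor. Of the 10 chemokine genes, 4 (40.0%) were above the floor on at least 1 array, against 11194 genes (61.5%) of all those named. Signals are linear and in arbitrary units throughout, and ratios are those of CD103+ Th1 over Th1. With the floor at the 75th percentile of all signals, 472, none of the 10 genes was measured.

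**Figure D1:**
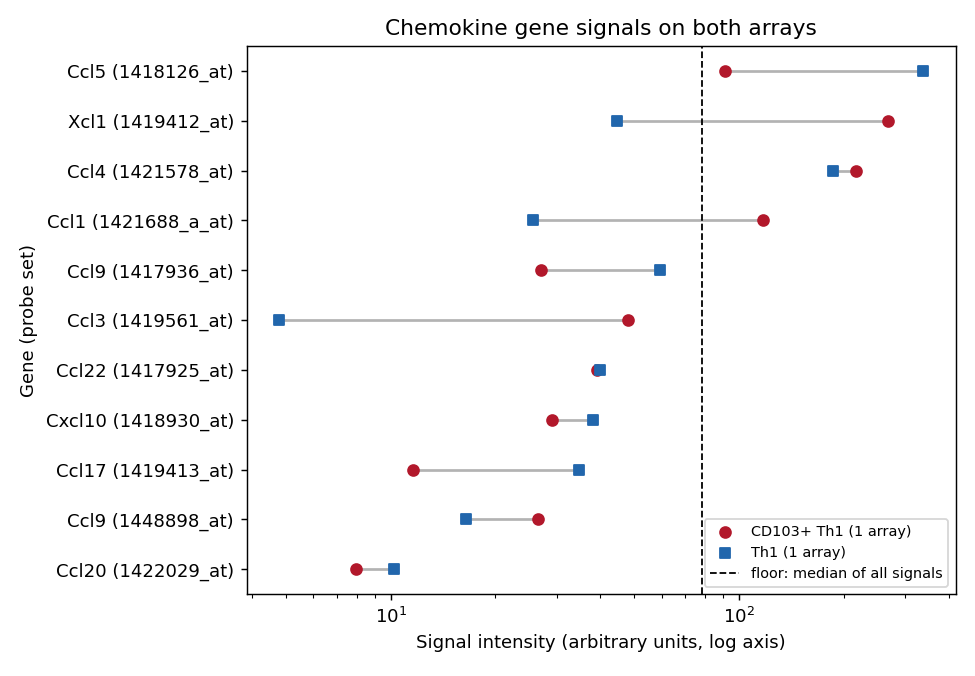
Signal of each of the 11 probe sets (rows) in CD103+ Th1 (red circles) and Th1 (blue squares), 1 array each, on a logarithmic axis in arbitrary units, with the floor of 78.5 as a dashed line. Ccl5 and Ccl4 lie right of the line on both arrays, Xcl1 and Ccl1 only in CD103+ Th1, and the other 7 probe sets lie left of it on both.

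Ccl5 and Ccl4 were the only members with both signals above the floor. Ccl5 encodes RANTES, which attracts T cells, monocytes and eosinophils through receptors that include Ccr1 and Ccr3. Its probe set 1418126_at had a signal of 91.5 in CD103+ Th1 and 338 in Th1, a log2 ratio of -1.89. The CD103+ Th1 signal was 1.17 times the floor, close to it, and the Th1 signal 4.31 times the floor. Only 0.849% of measured genes had a lower ratio than Ccl5. Ccl4 encodes MIP-1β, an inflammatory chemokine released by activated T cells. Its probe set 1421578_at gave 217 in CD103+ Th1 and 187 in Th1, a log2 ratio of 0.22, which 69.6% of measured genes lay below. The RNA came from whole cultures, in which fewer cells making a transcript and less transcript per cell cannot be told apart.

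The related inflammatory chemokine genes Ccl3 and Ccl9 were not read above the floor. Ccl3, which encodes MIP-1α and lies directly beside Ccl4 in the gene order of the mouse genome, had a signal of 48.0 in CD103+ Th1 and 4.78 in Th1 on probe set 1419561_at. Both values are under the floor, at 0.612 and 0.0609 times its level, so no fold is given in spite of their distance. Among the 21001 probe sets under the floor on both arrays, 40.1% differed by 2-fold or more as deposited and 3.69% by 10-fold or more, against 8.56% and 0.138% of the 21001 probe sets above it on both. Ccl9, a Ccr1 ligand of myeloid cells, gave 27.0 in CD103+ Th1 and 59.2 in Th1 on probe set 1417936_at, and 26.5 and 16.5 on 1448898_at. Its probe sets thus pointed in opposite directions, all 4 values being under the floor. In the gene order, Ccl5, Ccl9, Ccl6, Ccl3 and Ccl4 follow each other with no other protein-coding gene between them in the annotation used. Of these 5 neighbours, Ccl5 was lower in CD103+ Th1, Ccl4 was 1.16-fold higher, and Ccl9, Ccl6 and Ccl3 were under the floor on both arrays.

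Xcl1 and Ccl1 were seen above the floor in CD103+ Th1 alone. Xcl1 encodes lymphotactin, which acts on the cross-presenting dendritic cells that carry Xcr1. Its probe set 1419412_at had a signal of 269 in CD103+ Th1 and 44.5 in Th1. The CD103+ Th1 signal was 3.42 times the floor and the Th1 signal 0.568 times the floor, which gives a bound of 1.78 on the log2 scale, above 98.7% of measured genes. With the floor at the 25th percentile of all signals, 21.2, both Xcl1 values are above it and the difference is 6.03-fold. Ccl1 encodes TCA-3, a T cell product and the ligand of Ccr8. Its probe set 1421688_a_at had a signal of 118 in CD103+ Th1 and 25.6 in Th1. The bound of 0.58 on the log2 scale is under 2-fold. The log2 ratio was 2.20 with the lower floor, which both Ccl1 values exceed. The Ccl1 call at 2-fold therefore depends on the floor.

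The listed ligands of Ccr4, Ccr6 and Cxcr3 were under the floor on both arrays. Ccl17 and Ccl22, the Ccr4 ligands TARC and MDC that are inducible by IL-4 in dendritic cells and macrophages, were read at 11.6 and 39.1 in CD103+ Th1, whose medium held IL-4, and at 34.7 and 40.0 in Th1. The transmembrane chemokine gene Cx3cl1, which lies between them in the gene order, was also under the floor, at 33.5 and 56.1 on its brightest probe set. Ccl20, the Ccr6 ligand, gave 7.95 in CD103+ Th1 and 10.2 in Th1. Cxcl10 encodes IP-10, a Cxcr3 ligand and a widely used marker of the response to IFN-γ. Its probe set 1418930_at had a signal of 29.1 in CD103+ Th1, whose medium held IFN-γ, and of 38.0 in Th1. The other Cxcr3 ligand genes, Cxcl9 and Cxcl11, were also under the floor on both arrays.

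**Figure D2:**
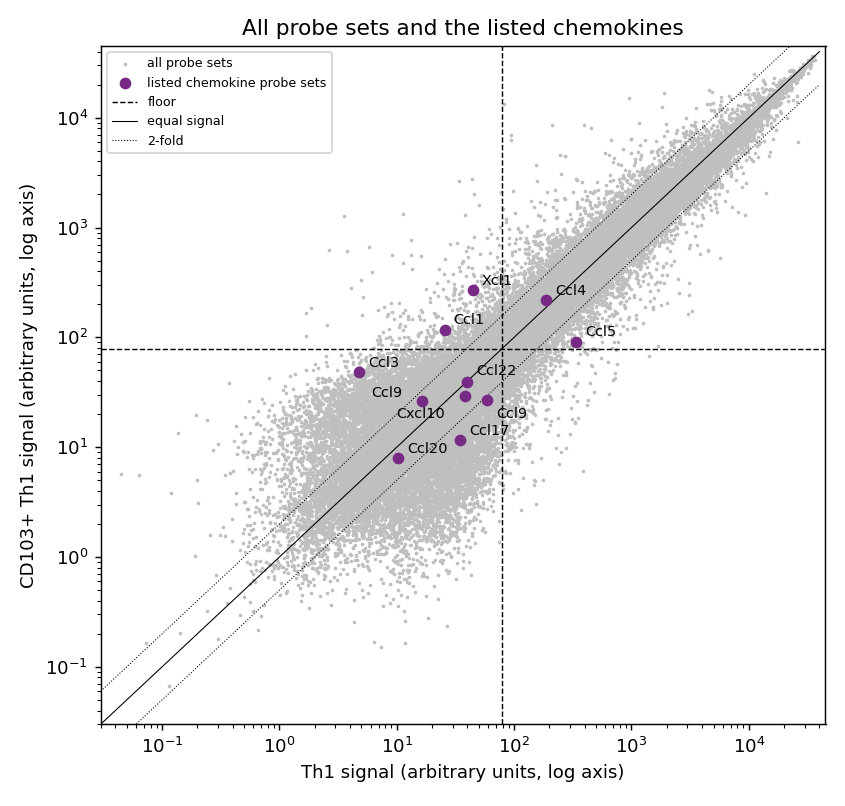
Signal of all 45037 probe sets (grey) in Th1 (horizontal) and CD103+ Th1 (vertical), 1 array each, on logarithmic axes in arbitrary units, with the 11 chemokine probe sets in purple. Dashed lines mark the floor of 78.5, the solid line equal signals and dotted lines 2-fold. Of the 4 above the floor on at least 1 array, Xcl1 and Ccl1 lie above the dotted lines, Ccl5 below them and Ccl4 near the solid line, and the other 7 lie in the lower left field, where the cloud is wide.

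At 2-fold, 1 of the 4 measured chemokine genes was higher in CD103+ Th1 (Xcl1) and 1 was lower (Ccl5). Among all 11194 measured genes, 564 (5.04%) passed 2-fold upward and 545 (4.87%) downward in CD103+ Th1. When measured genes were ranked by the signal on their brighter array and divided into 4 equal bins, Ccl1, Ccl4 and Xcl1 fell into the dimmest bin and Ccl5 into the next. In the dimmest bin 3.50% of genes passed 2-fold upward and 4.61% downward, and in the next bin the shares were 6.25% and 7.01%. Of the 1475 probe sets above the floor in CD103+ Th1 alone, as that of Xcl1 was, 15.9% passed 2-fold upward. The 4 chemokine genes had a median log2 ratio of 0.40, with 3 above 0 and 1 below, against a median of -0.03 over all measured genes. Because Xcl1 and Ccl1 were above the floor in CD103+ Th1 alone, their ratios could only be above 0. This median and tally are therefore not read as a direction. With 4 genes and 1 array per culture, these counts describe the arrays and are not evidence about chemokine genes as a group.

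None of the measured chemokine genes outside the set passed 2-fold with the main floor. Of 28 further chemokine genes, 25 had a named probe set, 18 of these were under the floor on both arrays, and 7 were measured. Of these 7, 0 were 2-fold or more up and 0 down, against 5.04% and 4.87% of all measured genes, so with 7 genes this is near the background. Their median log2 ratio was -0.23, with 1 above 0 and 6 below. Only 3 of the 7 were above the floor in CD103+ Th1, and all 7 were in Th1. Cxcl16, Cxcl17, Pf4 and Ccl8, above it in Th1 alone, could only have ratios below 0. The median and the tally are therefore not read as a direction. Where only a bound is given below, a larger difference was not excluded. Ccl25, the thymic and intestinal chemokine that attracts Ccr9-bearing T cells, gave 129 in CD103+ Th1 and 95.7 in Th1, a log2 ratio of 0.43, and its second probe set gave a bound of 0.06. Cxcl16, the ligand of Cxcr6, had 62.3 and 115, a bound of -0.55, and Cxcl17 had 75.1 and 105, a bound of -0.42. Cxcl1, a neutrophil attractant, had a log2 ratio of -0.23 on its brightest probe set, Ccl27a -0.16, the platelet chemokine gene Pf4 a bound of -0.24, and Ccl8, the neighbour of Ccl1 in the gene order, a bound of -0.10. These signals, like those of the 10 listed genes, lay within a few times the floor or under it.

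Of 7 receptor genes for the listed chemokines with a named probe set, 3 were measured, 1 of them 2-fold or more up and 0 down in CD103+ Th1, against 5.04% and 4.87% of all measured genes. Their median log2 ratio was 0.50, against -0.03 over all measured genes, but it rests on 3 genes. Ccr8 was above the floor in CD103+ Th1 alone, so its ratio could only be above 0. Of the 1475 probe sets above the floor in that culture alone, 15.9% passed 2-fold upward. Ccr8, the receptor of Ccl1, read 273 in CD103+ Th1 and 17.6 in Th1, at least 3.48-fold higher, so that the ligand and its receptor were both above the floor in CD103+ Th1 alone. Cxcr3, the receptor of Cxcl10, was well above the floor in both cultures, with 1616 and 1146, 1.41-fold higher, although its 3 ligand genes were under the floor. Ccr4 had 107 on both arrays. Ccr1, Ccr3, Ccr6 and Xcr1 were under the floor on both.

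**Figure D3:**
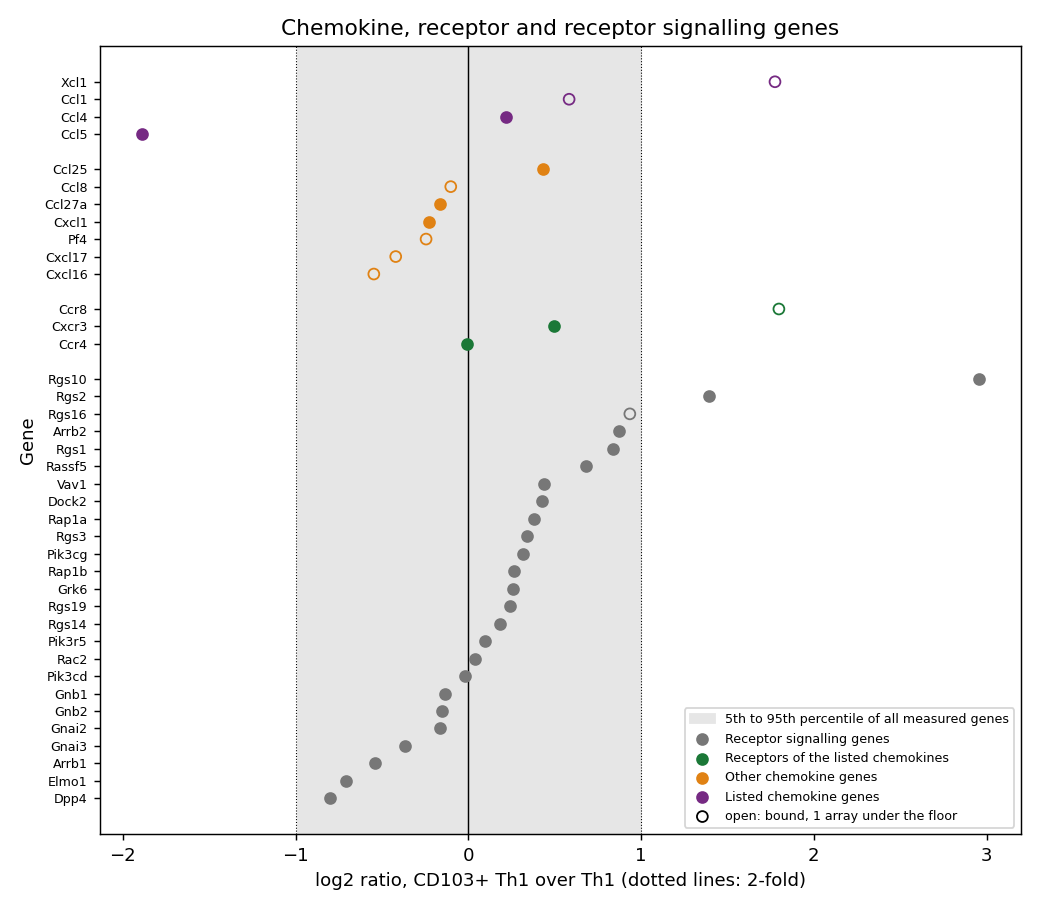
Ratio of CD103+ Th1 over Th1 on the log2 scale for the measured genes of 4 lists, 1 point a gene on its brightest measured probe set, 1 array per culture. Open points are bounds with 1 array under the floor, the grey band spans the 5th to the 95th percentile of all measured genes, from -0.98 to 1.00, and dotted lines mark 2-fold. Xcl1, Ccl1 and Ccr8 are open points right of 0, Ccl5 lies left of the band at -1.89, and Rgs10 is farthest right at 2.95.

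The last list held genes that act after chemokine receptors and Dpp4, whose product acts on the chemokines themselves. Of these 26 genes, 25 had a named probe set and all 25 were measured, 2 of them 2-fold or more up and 0 down in CD103+ Th1. The shares over all measured genes were 5.04% and 4.87%, and among the brightest of the 4 bins 6.22% and 3.54%, so 2 of 25 is near the background. That bin starts at a signal of 1994 and does not hold all 25 genes. Rgs2 fell into the second dimmest bin, where the shares were 6.25% and 7.01%. Log2 ratios in the list had a median of 0.26, with 17 above 0 and 8 below, against -0.03 over all measured genes. Rgs10, which encodes a regulator that shortens signalling by inhibitory G proteins, read 8987 in CD103+ Th1 and 1160 in Th1, a 7.75-fold difference on its 1 probe set. Rgs2, a regulator that acts mainly on Gq proteins, had 436 and 166, 2.63-fold higher on its brightest probe set, with 1.17 and a bound of 0.82 on the log2 scale on 2 others and a further probe set under the floor. Rgs16 gave a bound of 0.94, Rgs1, an inhibitor of chemokine-driven migration in lymphocytes, a log2 ratio of 0.84, and Arrb2, for β-arrestin 2, which takes part in receptor uptake, 0.87. Dpp4, which encodes CD26, a protease that trims the ends of Ccl5, Ccl22 and Cxcl10, was lowest at -0.80 on its brightest probe set, with 3 others from -0.65 to 0.15.

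The cell type of the cultures was checked with marker genes. All 6 T cell markers were above the floor on both arrays, with sums of 46956 in CD103+ Th1 and 43214 in Th1 over their signals. Xcl1 and Ccl5 are also products of CD8 T and NK cells. Of 6 markers of these cells 4 had a named probe set, and 3 were above the floor in each culture, with sums of 8568 in CD103+ Th1 and 10350 in Th1. Cd8a, at 2054 and 466, was 4.41-fold higher in CD103+ Th1, and Cd8b1, at 1593 and 697, was 2.28-fold higher. Nkg7, at 4893 and 9162, was 1.87-fold lower, and the larger sum in Th1 rests on it. The NK marker Ncr1 was under the floor at 27.3 and 25.1. The part of CD8 T and NK cells in the Xcl1 and Ccl5 signals was not tested. Of 12 macrophage and dendritic cell markers, 11 had a named probe set, 5 were above the floor in CD103+ Th1 and 4 in Th1, with sums of 1244 and 863. Mpeg1 had 660 in CD103+ Th1 and 5.75 in Th1, and without it, a choice made after seeing the data, the sums were 584 and 857, so that their order turned. Both sums include signals under the floor, so the turned order rests in part on values not read as levels. Cd68, at 104 and 233, was 2.25-fold lower in CD103+ Th1, and Csf1r, at 118 and 187, was 1.59-fold lower. Zbtb46, at 91.3 and 13.6 on its brightest probe set, and Flt3, at 79.2 and 71.1, were above the floor in CD103+ Th1 alone. Adgre1, at 57.0 and 79.1, and Siglech, at 59.2 and 85.6, were above it in Th1 alone. Cd14, Itgax, Itgam and Lyz2 were under the floor on both arrays. The part of these cells in the chemokine signals was not tested. For B cells, 2 of the 5 markers with a named probe set were above the floor in CD103+ Th1 and 1 in Th1, with sums of 423 and 344. Cd79b, at 244 and 75.8, was at least 3.11-fold higher in CD103+ Th1, the direction of Xcl1 and Ccl1, while Blk, at 96.8 and 115, was 1.19-fold lower. Ms4a1, Cd79a and Pax5 were under the floor on both arrays, and the part of B cells in the chemokine signals was not tested.

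Promoter sequences are given for Xcl1 and Ccl1, the members above the floor in CD103+ Th1 alone, and for Cxcl10, named above as an IFN-γ response marker. They were taken from RefSeq on mouse build GRCm38.p6 and run from 250 bases before to 50 bases after the annotated start. Of the 10 genes, 8 had an entry, and Ccl4 and Ccl5 had none. The sequences were searched on both strands for sites of factors that act after the cytokines in the media or after T cell receptor signalling. The motifs were TTCNNNGAA (GAS, bound by STAT proteins after interferon), TTCNNNNGAA (STAT6, after IL-4), GAAANNGAAA (ISRE, interferon response), TGANTCA (AP-1), TCACACC (T-box), CAGACA (SMAD, after TGF-β), GGAAA (NFAT) and the NF-κB motif. Capitals mark matches to any of these but GGAAA, which 61.3% of 32851 promoters of this length held.
Xcl1, chr1:164935473-164935772, minus strand: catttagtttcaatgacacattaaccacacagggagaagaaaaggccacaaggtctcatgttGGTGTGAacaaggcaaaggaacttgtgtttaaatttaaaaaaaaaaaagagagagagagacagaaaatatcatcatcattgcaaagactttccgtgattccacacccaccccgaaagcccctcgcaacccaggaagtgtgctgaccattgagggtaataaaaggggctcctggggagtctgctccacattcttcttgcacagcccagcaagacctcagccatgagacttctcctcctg
Ccl1, chr11:82179763-82180062, minus strand: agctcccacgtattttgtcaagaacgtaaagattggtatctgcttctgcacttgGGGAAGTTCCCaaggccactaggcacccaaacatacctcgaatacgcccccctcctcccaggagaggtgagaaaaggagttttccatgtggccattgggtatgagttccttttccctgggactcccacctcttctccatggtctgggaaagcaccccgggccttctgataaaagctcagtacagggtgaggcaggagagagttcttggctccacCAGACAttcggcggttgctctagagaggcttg
Cxcl10, chr5:92348840-92349139, minus strand: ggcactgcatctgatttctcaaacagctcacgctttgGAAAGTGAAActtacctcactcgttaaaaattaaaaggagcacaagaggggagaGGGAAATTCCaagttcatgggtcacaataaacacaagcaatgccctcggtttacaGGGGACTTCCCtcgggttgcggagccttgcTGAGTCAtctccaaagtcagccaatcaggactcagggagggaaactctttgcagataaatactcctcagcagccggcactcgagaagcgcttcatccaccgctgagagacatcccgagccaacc

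The Xcl1 window held 1 match to the T-box motif, which 3.98% of all promoters held, 188 bases before the start. The Ccl1 window held 2 overlapping matches to the NF-κB motif (in 8.46% of all promoters) and 1 to the SMAD motif (in 21.0%), the latter after the start. Cxcl10 had 1 ISRE match (in 3.44% of all promoters), 3 NF-κB matches, of which 2 overlap, and 1 AP-1 match (in 7.81%). Neither of the STAT motifs was found in these 3 windows. The GAS motif was in 8.30% of all promoters and the STAT6 motif in 6.95%, and the Ccl17 promoter, whose gene was under the floor in both cultures, held 1 of each. These matches describe letters in a window and were not measured as binding sites.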

How the data were processed

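Expression was measured in 1 CD103+ Th1 and 1 Th1 culture. The authors deposited 1 linear signal intensity per probe set and array, and the submitters' processing notes name the GCOS software. Its version, the scaling target and any filter are not given in the sources used here. Medians were 78.0 and 78.8 and the means without the 2% of values at each end 498 on both arrays, so no scaling was added. The floor was 78.5, the median over both arrays. Precision is limited by having 1 array per culture.

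Of 45037 probe sets, 34945 had 1 gene symbol in the platform annotation, 932 several and 9160 none listed. Symbols were updated by gene identifier to GRCm38.p6 where these matched (34741). Each gene was read on the measured probe set that was brightest by mean log2. Chemokine probe sets were each reported. Ratios were computed with Python 3.11.15, pandas 2.3.3 and numpy 2.4.6, and the steps were checked on data with known ratios. These ratios were planted in probe sets well above the floor, so the check gives no accuracy for signals near or under it. Signals of different probe sets were pooled for the floors and in sums over marker genes, and among the alternatives for the pseudocount and the scalings. They were compared with each other in the choice of the brightest probe set and in the bins by brightness. The sums used signals as deposited, also those under the floor.

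The members and gene lists were chosen with earlier results of these data known. All members were named, all measured further chemokine and receptor genes, and receptor signalling genes at least 2-fold different with the next 4. With 2 arrays no gene was named for likeness of pattern. Alternatives were floors, a pseudocount, scalings, probe set choice and fold thresholds. The division into 4 bins by brightness was added after seeing the data.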

Additional observations from a re-analysis of the deposited data

How the results depend on the processing

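No paired analysis was possible because each culture had 1 array. As there is no replicate spread, a ratio under 2-fold was called moved when it changed by over 1.5-fold. Ccl5 (log2 ratios from -1.92 to -1.67), Xcl1 (1.73 to 2.59) and Ccl4 (0.15 to 0.23) kept their direction and their side of 2-fold under the 7 alternatives that gave them a value. Some of these could not differ. Each of the 3 genes has 1 probe set, without suffix letters, so both probe set choices return the same value. The lower floor could not change Ccl5 or Ccl4, whose signals all lay above the main floor. With the floor at the 75th percentile, 472, no member was measured, and 0 were higher and 0 lower. Ccl1 passed 2-fold once the floor was lowered to the 25th percentile (2.20) and with a pseudocount of 21.2 in place of the floor (1.57), and it had no value from probe sets without suffix letters. With that lower floor, of 9 measured members 3 were higher (Ccl1, Ccl3 and Xcl1) and 2 lower (Ccl5 and Ccl9). Among all 15798 genes measured with it, 974 were higher and 1206 lower. With the pseudocount, of 10 members 3 were higher, the same genes, and 1 lower (Ccl5), against 846 and 968 of 18193 genes. At 1.5-fold, of 4 measured members 1 was higher (Xcl1) and 1 lower (Ccl5), the Ccl1 bound of 1.4986-fold lying just under. At 4-fold 0 members were higher and 0 lower.

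Of all genes, 974 were higher and 1206 lower of 15798 measured with the lower floor, and 267 and 199 of 7169 with the higher floor. Of 11194 measured genes, 1391 were higher and 1499 lower at 1.5-fold, and 108 and 86 at 4-fold. With the pseudocount 846 and 968 of 18193 genes passed 2-fold. Among other chemokine genes, 1 was higher (Cxcl14) and 1 lower (Cxcl11) of 18 measured with the lower floor, and of 25 with the pseudocount. Among the receptors 1 of 6 measured was lower (Ccr6) with the lower floor, and 0 of 1 measured were higher with the higher floor. Of 23 receptor signalling genes measured with the higher floor, 1 (Rgs10) was higher. The scalings moved the median of all genes by at most 0.02 on the log2 scale. The table used here has no detection calls, and the floor stands in for them.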
